A study of Mus musculus with 12 samples.

Results

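Short-chain fatty acids, made by bacteria that ferment fiber, are sensed and taken up in the colon by a small group of membrane proteins. Here 8 genes, those of such proteins and of closely related receptors, transporters and partners, were followed in the distal colon of mice with and without a deletion of Spry2 (Sprouty2, a receptor tyrosine kinase antagonist) in the epithelium. They were chosen by symbol and role, with no threshold on their values: the receptors Ffar2, Ffar3, Ffar4 and Hcar2, the sodium-coupled transporter Slc5a8, the proton-coupled transporters Slc16a1 and Slc16a3, and Bsg, the chaperone of both proton-coupled transporters. All 8 were among the 35241 gene symbols of the table and among the 15880 genes tested, whose mean had to reach 0.5. RNA from full-thickness distal colon was sequenced from 6 Spry2IEKO mice, which carry floxed Spry2 alleles and Cre under the villin promoter, and from 6 Spry2FF mice, which carry the same floxed alleles and no Cre. The villin promoter is active in intestinal epithelium, so by design the muscle, immune, nerve and fat cells of the sample keep Spry2 in both groups. Each genotype had 3 mice in litter A and 3 in litter B. The sample names carry a different prefix in each litter, so litter and sample series cannot be told apart. Sex was uneven, with 3 of 6 females among Spry2FF mice and 5 of 6 among Spry2IEKO mice, which in litter A were all female. The labels give an age of 6 weeks in 1 field and 8 weeks in another for all mice, and no treatment.

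Propionate and butyrate enter colonocytes through SLC5A8 and MCT1 (Slc16a1), and colonocytes burn butyrate as their main fuel. FFAR2 and FFAR3 are G protein-coupled receptors for acetate, propionate and butyrate, found on L cells, which secrete GLP-1 and PYY, and on leukocytes. FFAR4 is a receptor for long-chain fatty acids that L cells and other epithelial cells carry, and HCAR2 binds butyrate and the ketone body β-hydroxybutyrate. In full-thickness tissue, fewer cells of a type and less RNA per cell cannot be told apart.

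The deposited values are kallisto TPM, transcript abundances corrected for transcript length and library size, that the authors rescaled between mice; the sums over a gene's transcripts are called normalized TPM here. Totals ran from 918816 to 1069158 per mouse. They are not read counts and keep no depth of the single mouse, so counting error cannot be given. As a check of the labels, Spry2 was between 18.5 and 22.5 in the 6 Spry2IEKO mice and between 22.8 and 32.3 in the 6 Spry2FF mice, with no overlap (p = 0.00216 by two-sided exact permutation, the lowest value possible here; limma adjusted p = 0.160). Replicates 4 and 5 of Spry2IEKO, both females of litter A, stood apart by their fat genes: the summed adipocyte markers reached 569 in Spry2IEKO mice against a median of 15.6 in Spry2FF mice. Values are therefore also given without these 2 mice where a result rests on them.

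By level, the members spanned nearly 3 orders of magnitude. On the normalized TPM scale, which is per length, Bsg stood at 508 ± 35.5 (mean ± SD, n = 12 mice), Slc16a1 at 146 ± 12.7, Slc5a8 at 138 ± 16.8, Ffar4 at 14.1 ± 3.62, Slc16a3 at 7.10 ± 2.70, Ffar2 at 2.46 ± 1.35, Ffar3 at 0.741 ± 0.299 and Hcar2 at 0.593 ± 0.269. The transporters Slc16a1 and Slc5a8 and the chaperone were thus abundant, and the receptors and Slc16a3 scarce. In 2 pairs neighbours in this order could not be separated: Slc16a1 exceeded Slc5a8 in 7 of 12 mice (two-sided exact sign-flip permutation test on the log2 ratio within mice, p = 0.118), and Ffar3 exceeded Hcar2 in 7 of 12 (p = 0.204 by the same exact test). Ffar4 exceeded Slc16a3 in 11 of 12 mice, the exception being a Spry2IEKO male of litter B, and every other neighbouring pair kept its order in 12 of 12. Relative to its mean, Bsg varied least among the mice and Ffar2 most, with a coefficient of variation of 54.8%.

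For genotype, limma was run on log2(normalized TPM + 0.5) over all 15880 genes with Benjamini-Hochberg adjustment, and differences are Spry2IEKO minus Spry2FF. The pseudocount of 0.5 understates the differences of Hcar2, Ffar3 and Ffar2. None of the 8 members passed an adjusted p of 0.05, where 0.0315% of all genes did (5 genes), and their adjusted p-values lay between 0.611 and 0.997. At an unadjusted p under 0.05 there were 3 of 8 members (Ffar4, Bsg and Ffar2), where 6.18% of all genes passed. The median log2 difference was 0.08 over the members and 0.0076 over all genes.

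Promoters are shown for Ffar4, which had the lowest p-value of the members by genotype, and for Slc5a8 and Slc16a1, the transporters whose genotype differences had opposite signs in the litters. Each of these genes has a single transcript in the table. The windows hold the 250 bases before the RefSeq start on the plus strand of GRCm38.p6, at chr19:38096829-38097078 for Ffar4, chr10:88885742-88885991 for Slc5a8 and chr3:104638414-104638663 for Slc16a1, with matches to the motifs in capitals.
Ffar4: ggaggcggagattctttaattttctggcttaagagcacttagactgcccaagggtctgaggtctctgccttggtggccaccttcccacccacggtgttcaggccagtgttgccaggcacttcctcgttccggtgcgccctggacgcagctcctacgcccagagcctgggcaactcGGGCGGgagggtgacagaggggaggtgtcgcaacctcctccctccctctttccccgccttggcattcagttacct
Slc5a8: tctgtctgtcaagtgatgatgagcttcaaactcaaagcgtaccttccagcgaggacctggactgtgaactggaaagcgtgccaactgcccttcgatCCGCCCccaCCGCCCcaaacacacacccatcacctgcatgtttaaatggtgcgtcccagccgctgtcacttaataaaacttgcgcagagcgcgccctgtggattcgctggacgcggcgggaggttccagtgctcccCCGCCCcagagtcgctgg
Slc16a1: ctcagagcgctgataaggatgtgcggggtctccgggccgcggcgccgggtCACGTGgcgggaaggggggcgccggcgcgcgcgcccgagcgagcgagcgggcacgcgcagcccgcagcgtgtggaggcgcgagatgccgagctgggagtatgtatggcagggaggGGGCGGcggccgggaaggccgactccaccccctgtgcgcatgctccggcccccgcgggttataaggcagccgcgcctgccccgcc
Motifs were searched on both strands: the GC box GGGCGG, the TATA box TATAAA, the E-box CACGTG, the AP-1 site TGACTCA and the CCAAT box CCAAT, held by 32.7%, 12.4%, 6.02%, 4.46% and 33.8% of the 32851 RefSeq promoter windows of this length. Ffar4 held 1 GC box, Slc5a8 held 3, and Slc16a1 held 1 GC box and 1 E-box, while the other motifs had no match in these 3 windows. The Slc16a1 window had 37 CpG dinucleotides, more than 97.8% of all windows, against 17 in Slc5a8, 11 in Ffar4 and a median of 6. A match describes the letters and not a bound site. The last 8 bases of the Ffar4 window lie inside its GENCODE transcript.

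Ffar4 (ENSMUSG00000054200, GRCm38 chromosome 19, 38097071 to 38114263, plus strand), the long-chain fatty acid receptor, had the lowest p-value of the members by genotype. In Spry2FF mice its normalized TPM was 8.42 at the lowest, 11.8 at the median and 14.2 at the highest, and in Spry2IEKO mice 12.1, 17.1 and 20.2. The groups overlapped only through the Spry2IEKO male of litter B. In litter A the 3 Spry2IEKO mice stood at 18.4, 19.0 and 20.2, above the 3 Spry2FF mice at 11.2, 12.5 and 14.2. In litter B they stood at 12.1, 14.5 and 15.8 against 8.42, 10.6 and 12.6, and the ranges overlapped. On average Ffar4 was 43.9% higher in Spry2IEKO mice, 16.7 ± 3.07 against 11.6 ± 1.98 (SD, n = 6 each). The log2 difference was 0.50 (SE 0.143, 95% interval 0.19 to 0.81), ranking 95 of 15880 genes by p. Its unadjusted p was 0.00376 and its adjusted p 0.611 by limma. For this gene alone p was 0.013 by two-sided exact permutation of the 12 mice, and within litters the exact p was 0.01. Litter A alone gave a log2 difference of 0.59 and litter B alone 0.42. Leaving out the 2 fat-rich mice gave 0.41, and the 24 other settings ran from 0.40 to 0.59, all with an adjusted p of 0.176 or more. Sex moves with genotype here: with sex as a covariate it was 0.40, and among females alone 0.48.

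Ffar2 (ENSMUSG00000051314, chromosome 7, 30818348 to 30823775, minus strand), the receptor for acetate and propionate, leaned the same way at a far lower level. In Spry2FF mice it was 0.728, 1.82 and 2.75 at the lowest, median and highest, and in Spry2IEKO mice 1.69, 2.83 and 5.92. The groups overlapped. In litter A the 3 Spry2IEKO mice (3.34, 3.41 and 5.92) were above the 3 Spry2FF mice (1.27, 2.42 and 2.75), as for Ffar4. The share of all genes that separate in this way within litter A was not counted. In litter B the Spry2IEKO mice (1.69, 2.05 and 2.32) overlapped the Spry2FF mice (0.728, 1.46 and 2.19). Litter A alone gave a log2 difference of 0.84 (unadjusted p = 0.0355 by limma), and litter B alone 0.43 (unadjusted p = 0.243). The log2 difference was 0.63 (SE 0.293, 95% interval 0.00 to 1.27, adjusted p = 0.809 by limma), and the exact permutation test gave p = 0.0736 over all splits and p = 0.015 within litters. The value leaned on the fat-rich mice: without both the log2 difference was 0.35, and without replicate 4 alone, the mouse at 5.92, it was 0.45. Of the 6 Ffar2 transcripts, Ffar2-201 held 57.7% of the mean and Ffar2-202 24.2%, and both code for the same number of codons, 330. Ffar2-202 was 0 when rounded to 4 decimals in 4 of 6 Spry2FF mice, although 10 of the 12 mice held a value above 0. It was above 0 at 4 decimals in all 6 Spry2IEKO mice. Its share ran from 0 to 69.3% between mice, and in a fit of all 45448 transcripts it had an adjusted p of 0.989.

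Ffar3 (ENSMUSG00000019429, chromosome 7, 30854330 to 30856178, minus strand), the propionate and butyrate receptor, lies 30554 bases from Ffar2, and Ffar1, the long-chain fatty acid receptor of the pancreatic islet, follows directly behind it. Ffar3 was 0.293, 0.650 and 1.18 at the lowest, median and highest in Spry2FF mice and 0.492, 0.690 and 1.22 in Spry2IEKO mice. The ranges lay nearly on top of each other (log2 difference 0.09, SE 0.228, 95% interval -0.41 to 0.58, adjusted p = 0.967). Hcar2 (ENSMUSG00000045502, chromosome 5, 123863570 to 123865499, minus strand) was 0.180, 0.493 and 0.799 in Spry2FF mice and 0.379, 0.661 and 1.01 in Spry2IEKO mice, again with overlap (log2 difference 0.26, SE 0.230, adjusted p = 0.894). Without the 2 fat-rich mice the log2 difference of Hcar2 was 0.076. With 1 mouse left out it ran from 0.16 to 0.34. Both genes sat near the pseudocount, and differences within these intervals were not detectable.

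**Figure D1:**
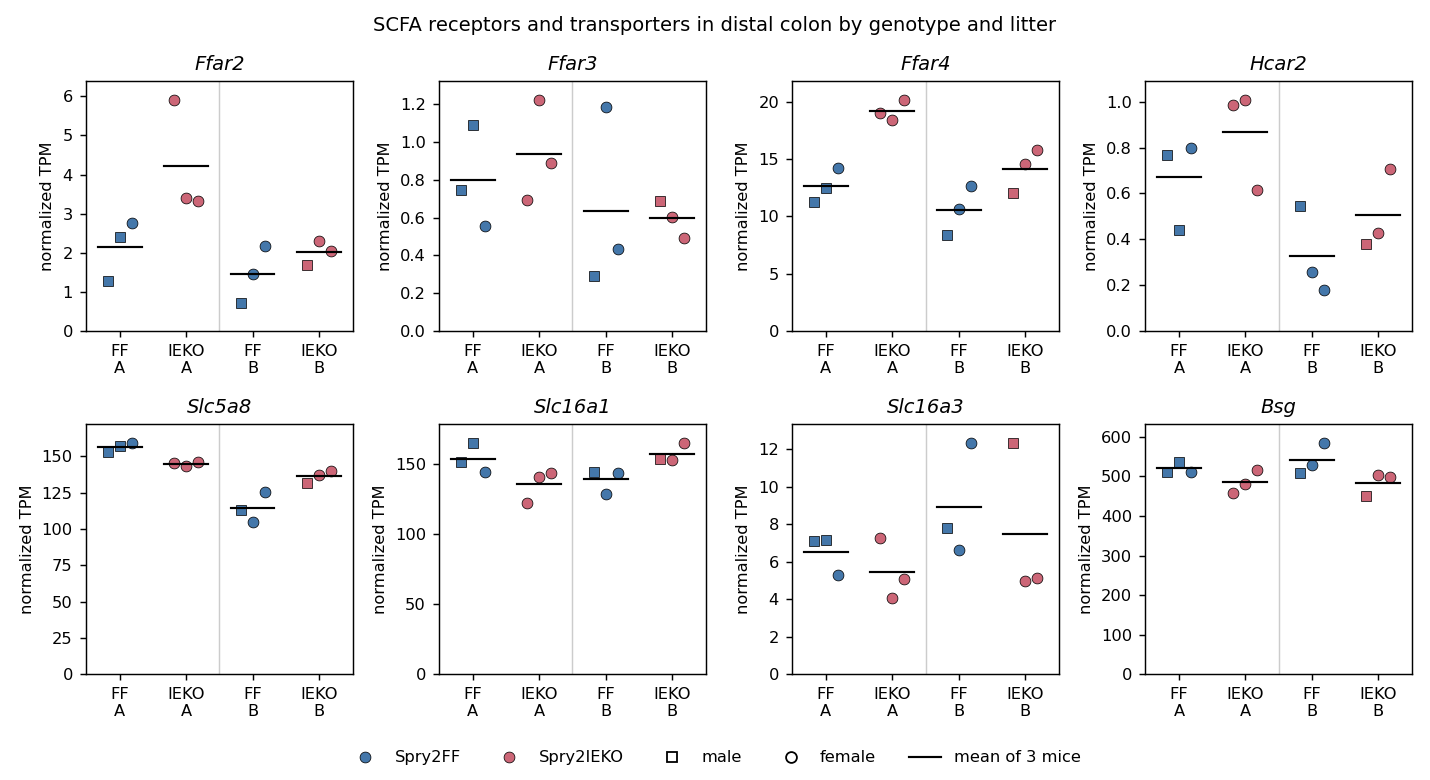
Normalized TPM of the 8 members in each of the 12 mice, by genotype (FF, IEKO) and litter (A, B); squares are males, circles females, and lines the mean of 3 mice, with all axes from 0. Ffar4 is higher in Spry2IEKO mice in both litters (18.4 to 20.2 against 11.2 to 14.2 in litter A), whereas Slc5a8 and Slc16a1 are lower in Spry2IEKO mice of litter A and higher in those of litter B.

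Slc5a8 (ENSMUSG00000020062, chromosome 10, 88885992 to 88929515, plus strand) encodes the sodium-coupled monocarboxylate transporter of the apical membrane. Over all mice it did not separate by genotype: 105, 139 and 159 at the lowest, median and highest in Spry2FF mice and 132, 141 and 146 in Spry2IEKO mice (log2 difference 0.07, SE 0.103, 95% interval -0.15 to 0.29, adjusted p = 0.931). Within litters it separated in opposite directions. In litter A the 3 Spry2IEKO mice (143, 145 and 146) were all below the 3 Spry2FF mice (153, 157 and 159), a log2 difference of -0.11. In litter B they (132, 137 and 140) were all above them (105, 113 and 125), a log2 difference of 0.25. The difference between the litters was 0.36 (95% interval 0.14 to 0.59, unadjusted p = 0.00389, adjusted p = 0.998 by limma).

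Slc16a1 (ENSMUSG00000032902, chromosome 3, 104638668 to 104658462, plus strand), which encodes the proton-coupled transporter MCT1, did the same. Its mean was 146 ± 11.8 in Spry2FF and 146 ± 14.6 in Spry2IEKO mice (SD, n = 6 each), a log2 difference of -0.0024 (95% interval -0.17 to 0.16, adjusted p = 0.997 by limma). In litter A the Spry2IEKO mice (122, 141 and 143) were below the Spry2FF mice (144, 151 and 165), by a small gap between 143.1 and 144.4. In litter B they (153, 153 and 165) were above them (129, 144 and 144). The log2 differences were -0.18 and 0.18, and the difference between them was 0.36 (95% interval 0.10 to 0.62, unadjusted p = 0.0118, adjusted p = 0.998 by limma).

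Neither interaction passed the adjusted threshold, which 0.0126% of all genes did, and at an unadjusted p under 0.05 there were 2 of 8 members where 4.19% of all genes passed. Non-overlap in both litters with opposite signs was found in these 2 of 8 members and in 0.422% of all genes (67 genes). Leaving out any 1 mouse gave a litter difference between 0.30 and 0.43 for Slc5a8 and between 0.29 and 0.40 for Slc16a1, and leaving out the 2 fat-rich mice gave 0.35 (unadjusted p = 0.0279) and 0.28 (unadjusted p = 0.0758). Sex is uneven between the genotypes of litter A, and with sex as a covariate the values were 0.40 and 0.33. These settings were chosen after the data had been seen. Across the 12 mice the genes were only loosely tied to each other (Pearson r = 0.35, Spearman rho = 0.20, permutation p = 0.264 and 0.527), and r was 0.04 without the 2 mice farthest from the median of Slc5a8, 0.63 within litter A and 0.92 within litter B. Slc16a1 was lower where the adipocyte marker score was higher (r = -0.60, rho = -0.73, adjusted permutation p = 0.234 and 0.169 over 72 relations), with r = -0.49 without the fat-rich mice, and the part of fat in its litter A values was not tested.

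Slc16a3 (ENSMUSG00000025161, chromosome 11, 120948480 to 120960868, plus strand) encodes MCT4, the lactate exporter of glycolytic cells. It was 5.32, 7.13 and 12.3 at the lowest, median and highest in Spry2FF mice and 4.07, 5.11 and 12.3 in Spry2IEKO mice. The highest mouse of each group, a Spry2FF female and a Spry2IEKO male, came from litter B, and the ranges overlapped (log2 difference -0.28, SE 0.245, 95% interval -0.81 to 0.24, adjusted p = 0.892). Without that male it was -0.48 (unadjusted p = 0.0289, adjusted p = 0.556). Without that female, Spry2FF replicate 13, it was -0.15, and with sex as a covariate it was -0.16. Slc16a3-201 held 55.5% of the mean over 8 transcripts, and Slc16a3-202, with the same 470 codons, 14.2%.

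Bsg (ENSMUSG00000023175, chromosome 10, 79704491 to 79711969, plus strand) encodes basigin, the immunoglobulin-family chaperone that carries MCT1 and MCT4 to the plasma membrane. It was 510, 521 and 585 at the lowest, median and highest in Spry2FF mice and 450, 490 and 517 in Spry2IEKO mice. Only 1 Spry2IEKO mouse, replicate 6 at 517, was above the Spry2FF minimum. The means were 485 ± 26.3 in Spry2IEKO and 530 ± 28.8 in Spry2FF mice (SD, n = 6 each), a difference of -8.61% and a log2 difference of -0.13 (SE 0.0552, 95% interval -0.25 to -0.01). The adjusted p was 0.760 by limma, and the exact permutation test for the single gene gave p = 0.0108, or p = 0.02 within litters. On the log2 scale litter A gave -0.10, litter B -0.16 and the 10 mice without the fat-rich ones -0.11 (unadjusted p = 0.125). Without Spry2FF replicate 13, the mouse at 585, it was -0.10 (unadjusted p = 0.0845).

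The Bsg transcripts did not share this difference evenly. Bsg-205, with 273 codons, held 74.6% of the mean and was 403 in Spry2FF and 354 in Spry2IEKO mice on average. Bsg-202, with 218 codons, held 23.4% and was 115 and 123. Bsg-201, the long form with 389 codons and 1.36% of the mean, ran from 6.61 to 12.7 in Spry2FF mice and from 2.93 to 6.87 in Spry2IEKO mice. Only the Spry2IEKO mice at 6.71 and 6.87 reached into the Spry2FF range, through the Spry2FF mouse at 6.61. Its log2 difference was -0.76 (SE 0.209, 95% interval -1.21 to -0.31, unadjusted p = 0.00307, adjusted p = 0.884 in the fit of all 45448 transcripts). In that fit, made after the gene values had been seen, 0 of 18 tested transcripts of the members passed the adjusted threshold, where 0.0022% of all transcripts did, and 3 of 18 had an unadjusted p under 0.05 (Bsg-201, Ffar4-201 and Ffar2-202), where 4.95% did. Spry2IEKO replicate 12 had the highest share of Bsg-202, 42.0%, and the lowest of Bsg-205, 56.5%. The transcripts share most of their exons, and the division of reads between them is an estimate by kallisto.

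**Figure D2:**
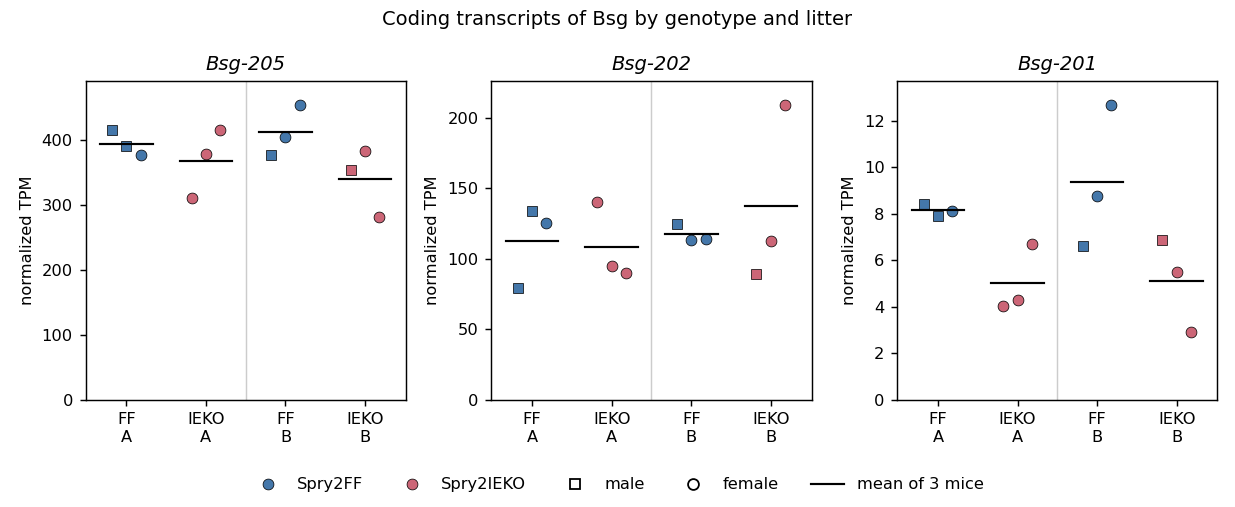
Normalized TPM of the 3 main coding transcripts of Bsg in each mouse, by genotype and litter; squares are males, circles females, lines the mean of 3 mice, and each axis starts at 0. Bsg-201 is the transcript whose groups lie farthest apart, 6.61 to 12.7 in Spry2FF against 2.93 to 6.87 in Spry2IEKO mice.

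Between the litters, compared with genotype in the model and given as litter B minus litter A, 0 of 8 members passed an adjusted p of 0.05 by limma, where 4.38% of all genes did (171 higher and 525 lower in litter B). The direction of these calls depended on the scaling, with 209 higher and 268 lower after quantile normalization and 105 higher and 1351 lower after rescaling to equal totals. At an unadjusted p under 0.05 there were 4 of 8 members (Slc5a8, Ffar4, Ffar2 and Hcar2), all lower in litter B, where 21.9% of all genes passed. The median log2 difference was -0.29 over the members and -0.05 over all genes. The litters were so different in many genes that a share of 4 in 8 has to be read against that background. The number of litter calls was itself unstable. It fell from 696 to 17 without the 2 fat-rich mice, to 1 among females alone and to 180 without Spry2IEKO replicate 5. Leaving out Spry2IEKO replicate 8 raised it to 957. Litter and sample series coincide here.

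Slc5a8 separated the litters without overlap, at 143 to 159 in litter A and 105 to 140 in litter B, as did 3.72% of all genes. The mean of litter B differed by -16.8% from that of litter A (log2 difference -0.27, SE 0.0712, 95% interval -0.43 to -0.12, adjusted p = 0.0532 by limma), and the exact permutation test gave p = 0.00216. The adjusted p was 0.0475 with a minimum mean of 2 and 0.0239 after the mice were rescaled to equal totals, and 0.282 among females alone. Ffar4 averaged 15.9 ± 3.76 and 12.3 ± 2.66 in the same order (log2 difference -0.35, SE 0.107, adjusted p = 0.0863), and its adjusted p was 0.0217 after rescaling and 0.0266 with sex as a covariate. Ffar2 was 3.18 ± 1.55 and 1.74 ± 0.588 (log2 difference -0.67, adjusted p = 0.122), and Hcar2 0.770 ± 0.217 and 0.416 ± 0.191 (log2 difference -0.48, adjusted p = 0.167). Over the settings tried, leaving out the fat-rich mice among them, these litter differences kept their sign. They ran from -0.35 to -0.21 for Slc5a8, -0.43 to -0.28 for Ffar4, -0.81 to -0.51 for Ffar2 and -0.80 to -0.32 for Hcar2. Ffar3 (-0.31), Slc16a3 (0.36), Slc16a1 (0.04) and Bsg (0.03) had adjusted p-values of 0.385 or more. Rescaling moved the median of all genes from -0.05 to -0.12 and turned the sign of the litter differences of Slc16a1 and Bsg, both near 0.

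**Figure D3:**
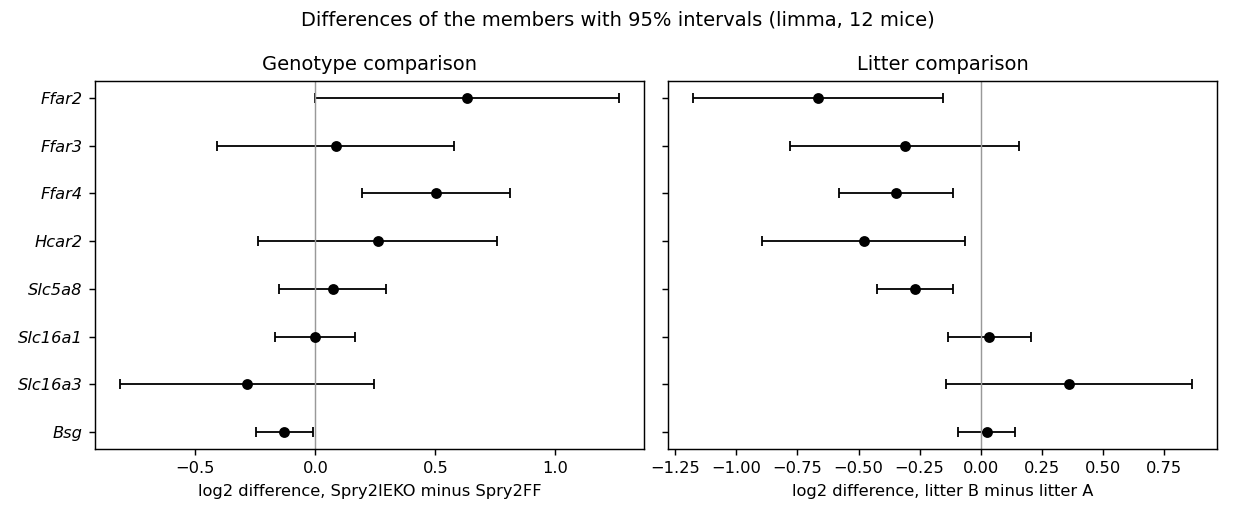
Log2 differences of the 8 members between genotypes (left) and litters (right), with points for the estimate of limma and bars for its 95% interval over 12 mice. By genotype the intervals of Ffar4 (0.19 to 0.81) and Bsg (-0.25 to -0.01) leave out 0 and that of Ffar2 touches it; by litter those of Ffar2, Ffar4, Hcar2 and Slc5a8 lie below 0.

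The other metabolite receptors showed litter differences of their own and none by genotype. Of 8 listed, 5 were tested, and 3 of them passed the adjusted threshold by litter, where 4.38% of all genes did. Over all genes the litter calls fell from 696 to 17 without the 2 fat-rich mice, both of litter A. Among females alone they fell to 1. Values of these 3 receptors without those mice are not given here. Olfr78, an acetate and propionate receptor, averaged 7.98 ± 0.964 in litter A against 14.8 ± 3.26 in litter B (log2 difference 0.83, SE 0.139, adjusted p = 0.0142 by limma). Gpr35, a receptor for kynurenate, was 36.5 ± 9.83 and 21.3 ± 3.09 (-0.74, SE 0.156, adjusted p = 0.0275). Hcar1, the lactate receptor, was 1.30 ± 0.786 and 0.255 ± 0.172 (-1.18, SE 0.265, adjusted p = 0.0331). Olfr78 was thus higher in litter B, where Gpr35 and Hcar1 were lower. By genotype the lowest unadjusted p of the list was that of Hcar1, 0.408, and Ffar1, next to Ffar3, stood at 0.747 in Spry2IEKO and 0.574 in Spry2FF mice.

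In the lists that surround the members, no gene passed the adjusted threshold by genotype. Their counts at an unadjusted p under 0.05 stand against 6.18% of all genes. Of 11 tested other monocarboxylate carriers 1 had an unadjusted p under 0.05: Slc16a12, a creatine carrier, at 9.71 ± 1.09 in Spry2IEKO and 7.36 ± 1.36 in Spry2FF mice (log2 difference 0.39, adjusted p = 0.674). Slc16a7 (-0.20) and Emb (0.25), which encode MCT2 and its chaperone embigin, followed. Of the anion and proton exchangers, Slc9a2 stood at 72.9 ± 8.50 in Spry2IEKO and 85.7 ± 8.22 in Spry2FF mice (log2 difference -0.23, unadjusted p = 0.0181, adjusted p = 0.733 by limma), and Slc26a6 at a log2 difference of -0.29. Of 12 genes that activate and oxidize short-chain acids there were 3: Bdh1, the mitochondrial β-hydroxybutyrate dehydrogenase (75.0 ± 6.72 against 90.0 ± 4.93, -0.27, unadjusted p = 0.0015, adjusted p = 0.445), Acads, the short-chain acyl-CoA dehydrogenase (-0.22), and Acss3, an acyl-CoA synthetase (0.49). Of 7 genes of lactate and pyruvate metabolism there was 1, Pkm (-0.21), the muscle-type pyruvate kinase, with Mpc1 at 0.14 and Ldha at -0.13. Of 10 genes that couple the receptors to G proteins and arrestins there were 0, the lowest p-values being those of Gnai2 (-0.16), Gna11 (-0.20) and Gnai3 (-0.09). By litter no gene of these 5 lists passed. The median log2 differences by genotype of the 5 lists lay between -0.18 (exchangers) and 0.06 (lactate and pyruvate), against 0.01 over all genes.

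Markers of the cells that carry the members were read beside them. All 8 epithelial markers were tested, and 5 had an unadjusted p under 0.05 by genotype, all 5 lower in Spry2IEKO mice (Vil1 -0.23, Cdh1 -0.22 and Krt19 -0.29 among them), as were 4 of 8 surface colonocyte markers (Mall -0.24, Ceacam20 -0.40, Krt20 -0.37). None passed the adjusted threshold, and 6.18% of all genes had an unadjusted p under 0.05. The epithelial markers summed to between 5711 and 7132 in Spry2IEKO and between 6887 and 8318 in Spry2FF mice. Their mean z-score differed by exact permutation test (p = 0.00866, n = 6 against 6), in the direction of Bsg and against that of Ffar4 and Ffar2. The fat-rich replicates 4 and 5 scored -1.26 and -0.64. The other Spry2IEKO mice scored -0.72 to 0.28 and the Spry2FF mice 0.03 to 1.12. The difference was not tested without replicates 4 and 5. Across mice r with the epithelial score was -0.66 for Ffar4 and -0.69 for Ffar2 (adjusted permutation p = 0.168 for both; rho = -0.51 and -0.44, adjusted p = 0.446 and 0.527), and -0.33 and -0.16 without the 2 mice farthest from the median of the score. The L cell markers, Gcg, Pyy and Insl5 among them, summed to between 436 and 793 in Spry2IEKO and between 430 and 667 in Spry2FF mice (exact p = 0.0844 for the z-score). On the log2 scale the 3 with the lowest p were Chgb at 0.50, Chga at 0.29 and Neurod1 at 0.39. The others were Insl5 at 0.36, Gcg at 0.20, Pyy at 0.17, Cpe at 0.0093 and Pcsk1 at -0.043. Only Chgb had an unadjusted p under 0.05. By litter the macrophage markers were lower in litter B, at 38.3 to 100 summed against 69.5 to 132 (exact p = 0.0152 for the z-score), with Cd68 at -0.87 (adjusted p = 0.0257 by limma). Of the epithelial and surface colonocyte markers Cdh1 (-0.22) and Guca2a (-0.57) passed and were lower in litter B, but the list medians were 0.09 and 0.21, and Slc26a3 (0.68), Car4 (0.54), Aqp8 (0.53), Ceacam20 (0.24), Krt19 (0.22) and Epcam (0.12) had positive differences with an unadjusted p under 0.05 that did not pass adjustment. The part of these cells in the members' differences was not tested.

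Of the neutrophil markers only Ly6g and Mmp9 were tested, with litter differences of opposite sign, and no score was made. Ly6g averaged 266 in litter A against 349 in litter B (log2 difference 0.38, adjusted p = 0.0639 by limma), and Mmp9 0.671 against 0.343 (-0.41, adjusted p = 0.467). The summed adipocyte markers ran from 10.6 to 66.8 in Spry2FF and from 5.20 to 569 in Spry2IEKO mice (Adipoq 1.61, Plin1 1.15 and Adrb3 0.64 by genotype, none with an unadjusted p under 0.05). Of the B cell markers, Cd22 (1.39) and Cd79b (1.45) had no unadjusted p under 0.05. Red blood cell markers ran from 41.3 to 378 and from 46.2 to 495 (Alas2 0.46, Hba-a1 0.48, Hbb-bs 0.41), smooth muscle markers from 4319 to 7149 and from 3327 to 8164 (Myh11 -0.20, Acta2 -0.15, Tagln -0.16), and striated muscle markers from 35.5 to 56.1 and from 22.5 to 66.4 (Acta1 -0.71 with an unadjusted p of 0.0134, Tnnt3 -0.47, Ckm -0.31). The macrophage markers with the lowest p by genotype were Adgre1 (0.38), Cd68 (0.34) and C1qa (0.31), none with an unadjusted p under 0.05.

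Across the 12 mice, which differ in genotype, litter and sex, 2 receptors moved together. Ffar2 and Ffar4 had a Pearson r of 0.90 and a Spearman rho of 0.87 (permutation p = 0.0001 and 0.00055, adjusted p = 0.0028 and 0.0154 over the 28 pairs of members), 0.86 without the 2 mice farthest from the median of Ffar2, 0.84 within litter A and 0.92 within litter B. No other pair passed. Of 72 relations of members with marker scores, 0 passed an adjusted p of 0.05 by Pearson's r and 2 by Spearman's rho, with 12 at an unadjusted permutation p under 0.05 for r. Ffar4 followed the L cell markers (r = 0.78, rho = 0.83, adjusted permutation p = 0.0821 and 0.0475), with r = 0.77 without the 2 mice farthest from the median of the score, 0.93 in litter A and 0.72 in litter B. Ffar3 followed the macrophage markers (r = 0.80, rho = 0.87, adjusted permutation p = 0.0821 and 0.0461), with r = 0.67 without the 2 mice farthest from the median of the macrophage score, 0.68 in litter A and 0.84 in litter B. Ffar2 followed the L cell markers as well (r = 0.81, rho = 0.80, adjusted permutation p = 0.0821 and 0.0758), with 0.71, 0.94 and 0.82 for the same 3 checks. Bsg followed the epithelial markers less closely (r = 0.67, rho = 0.71, adjusted permutation p = 0.168 and 0.169), with 0.70, 0.96 and 0.49.

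For each member, the 3 genes most like it among the other 15879 tested were taken by Pearson's r over the 12 mice, with no p. For Ffar4 they were Eogt (0.94), Ramp1 (0.93) and Spdef (0.93), the last a transcription factor of goblet cells. For Slc16a1 they were Slc34a2 (0.91), Slc15a1 (0.91) and Mep1b (0.88), a phosphate carrier, the peptide carrier PEPT1 and a brush border protease. For Slc16a3 they were Ldha (0.91), the lactate dehydrogenase subunit of glycolytic cells, Trio (0.91) and Zfp414 (0.90). For Slc5a8 they were Clec14a (0.92), Sema4a (0.90) and Tmem260 (0.90), and for Bsg Sfn (0.90), Mrpl55 (0.89) and Capn15 (0.89). For Ffar2 they were Ccn3 (0.92), Ighv1-7 (0.92) and Chchd3 (0.92), for Ffar3 Depp1 (0.91), Folr2 (0.90) and Mark1 (0.88), and for Hcar2 Zfp955a (0.92), Pik3cb (0.91) and Flrt3 (0.91). These values are the highest of 15879 for each member, over mice that share litter, sex and genotype. Slc16a3 and Ldha kept r = 0.83 without the 2 mice farthest from the median of Ldha, 0.83 within litter A and 0.93 within litter B, and Slc16a1 and Slc15a1 kept 0.82, 0.94 and 0.90.

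**Figure D4:**
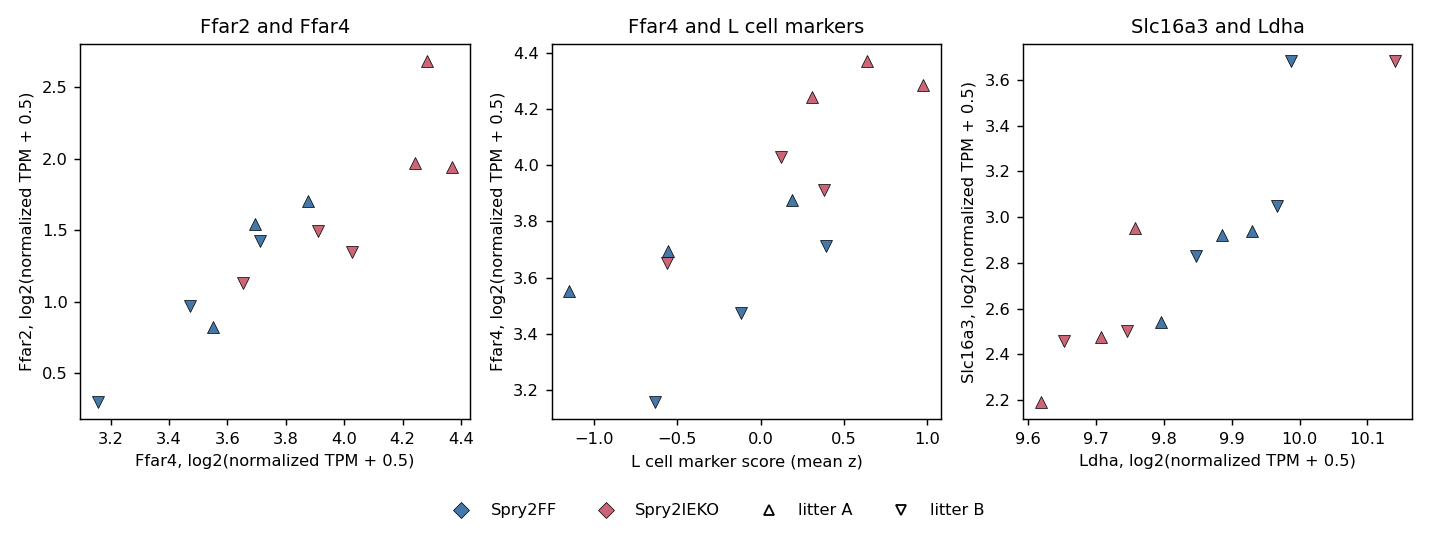
Each point is 1 mouse, on log2(normalized TPM + 0.5) or, for L cells, the mean z-score of 8 markers; triangles up are litter A and down litter B. Left, Ffar2 against Ffar4 (r = 0.90); middle, Ffar4 against the L cell score (r = 0.78); right, Slc16a3 against Ldha (r = 0.91), a gene chosen for its likeness.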

How the data were processed

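The samples are RNA from the distal colon, full thickness, of 12 mice, grouped by the genotype, litter and sex that the labels give. The submitters' processing notes name CASAVA, kallisto, sleuth and mm10. The authors' signal for each transcript is kallisto TPM that was rescaled between mice before it was deposited, since the totals differ, and the values keep no read depth. The table also holds p-values, q-values and test statistics of the authors' own test, which were not used. The tests planned for plain TPM were used unaltered. Of 113974 entries, 781 repeats were dropped, 28 gene names that a spreadsheet had made into dates were restored by Ensembl identifier, and transcripts were summed by gene symbol. Transcripts without a symbol held at most 0.0608% of a mouse's total.

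All genes whose mean reached 0.5 entered limma 3.58.1 (R 4.3.3; lmFit, then eBayes with trend; two-sided; Benjamini-Hochberg) as log2(signal + 0.5), by genotype with no covariate, by litter with genotype, and for their interaction. On simulated data with 15880 genes, of which 200 were changed by 1 on the log2 scale between genotypes, 76.5% of the changed genes were called and 4.97% of the calls were wrong. The members differed by at most 0.63 between genotypes, and the real fit called 5 genes. The simulated shares therefore do not give the power for the members. Single members were tested by exact permutation of mice (within litters, 400 splits) and correlations by 100000 permutations, in Python 3.11.15 with NumPy 2.4.6, pandas 2.3.3 and SciPy 1.17.1. Figures were drawn with matplotlib 3.10.9. A marker score is the mean z-score of the tested genes of a list with 3 or more.

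All 8 members are named. Of each other list, genes past an adjusted p of 0.05 and the 3 with the lowest p by genotype are named, and others, such as Gcg, Pyy, Insl5 and the transcripts, were named after their values were seen. Some genes of these lists are not reported here. The members and lists were chosen with earlier results of these data known. Alternatives were the pseudocount, the filter, the scaling, sex and litter as covariates, subsets of mice and leaving out each mouse. Positions and codons are from GENCODE M21 on GRCm38, promoters from RefSeq on GRCm38.p6, which held 6 of the 8 members.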

Additional observations from a re-analysis of the deposited data

Results flagged for a closer look

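In 2 of 16 groups of 6 mice (8 members in 2 genotypes), 1 mouse stood far from the other 5, where chance gives about 1 in 20 groups. It was the same mouse both times, Spry2FF replicate 13, a female of litter B: Slc16a3 was 12.3 against 5.32 to 7.78 in the other Spry2FF mice, and Bsg was 585 against 510 to 537. Without it the log2 difference by genotype was -0.10 for Bsg (unadjusted p = 0.0845) and -0.15 for Slc16a3.

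The genotype difference of Slc5a8 and of Slc16a1 had opposite signs in the litters, with no overlap of the genotypes in either. The difference in litter B minus that in litter A was 0.36 on the log2 scale for Slc5a8 and 0.36 for Slc16a1 (adjusted p = 0.998 for both by limma). All 3 Spry2IEKO mice of litter A are females and 2 of its 3 Spry2FF mice are males, and what this adds was tested only through sex as a covariate, which left 0.40 and 0.33.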

How the results depend on the processing

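Over the settings tried, 379 of 403 recomputed log2 differences of the members kept their sign and their side of an adjusted p of 0.05, 4 passed it and 20 changed sign, all 20 among values that had not passed it. By genotype no member passed under any setting. Changed signs by genotype were Ffar3 at -0.016 without the 2 fat-rich mice (-0.028 to 0.19 with 1 mouse left out), Slc5a8 at -0.11 in litter A alone, and Slc16a1 at 0.0015 with quantile normalization, 0.039 with sex as a covariate, 0.055 among females alone, 0.073 without the fat-rich mice and 0.18 in litter B alone (-0.038 to 0.048 with 1 mouse left out). By litter they were Bsg at -0.055 rescaled to equal totals and -0.027 with quantile normalization (-0.0029 to 0.052 with 1 mouse left out), and Slc16a1 at -0.044 rescaled and -0.052 without the fat-rich mice (-0.016 to 0.081 with 1 mouse left out). By litter 1 member passed with a minimum mean of 2 (Slc5a8), 2 rescaled (Slc5a8 and Ffar4) and 1 with sex as a covariate (Ffar4). The exact p of Ffar2 by genotype was 0.0736 over all splits and 0.015 within litters.

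The 5 genes called by genotype became 1 with no filter, 2 with quantile normalization, 1 with sex as a covariate, 2 among females alone, 1 without the fat-rich mice, 2 in litter A alone, 1 in litter B alone, 1 among single transcripts, and 1 to 11 with 1 mouse left out, 11 without Spry2IEKO replicate 8. The 696 genes called by litter became 422 with no filter, 1456 rescaled, 1 among females alone, 17 without the fat-rich mice, and 180 to 957 with 1 mouse left out, the lowest without Spry2IEKO replicate 5. The 2 genes of the genotype by litter difference became 0 with a minimum mean of 2, 7 without the fat-rich mice and 2 to 5 with 1 mouse left out. The causes were not tested. No paired analysis was possible because the genotypes share no replicate numbers, so litter stood in as a covariate and as a subset. The values keep no read depth, and Ffar3 and Hcar2 lie near the pseudocount.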
